A study of Mus musculus with 2 samples.

Results

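The enzymes that add methyl groups to cytosine in DNA, the enzymes that oxidise them, and the methyl-CpG binding protein Mbd2 were described in mouse regulatory T (Treg) cells, the CD4 T cell lineage that holds immune responses in check. The set held 8 genes of the 30175 gene names on the array: Dnmt1, Dnmt3a, Dnmt3b, Dnmt3l, Tet1, Tet2, Tet3 and Mbd2. They were found by the gene name that the scanner files give to each probe, which returned 17 probes, each printed in 1 spot. The study set Treg cells labelled Nr4a-deficient against Treg cells labelled wild-type, with 1 library and 1 single-colour Agilent array per genotype and mice aged 5 weeks in both. The Nr4a genes encode nuclear receptors that T cell receptor signals induce, and the sort markers, the tissue, the strain, the number of animals and the deleted parts of the Nr4a genes are not stated by the labels. Nr4a1 gave 80407 in Nr4a-deficient cells by label and 51441 in those labelled wild-type, 1.82-fold higher after scaling. Nr4a2 was 1.97-fold higher at 1 probe and 1.60-fold higher at its other, while Nr4a3 was above background in neither library. A probe outside the deleted part checks nothing, and each direction below rests on the labels: "Nr4a-deficient library" means the library labelled so. A single array per genotype allows neither a test nor a p-value, and each value describes these 2 libraries only.

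DNA methylation is written by Dnmt3a and Dnmt3b, which methylate unmodified CpG sites, and is copied onto the new strand after replication by Dnmt1, which Uhrf1 brings to half-methylated sites. The Tet enzymes oxidise methylcytosine, and the base is then restored through excision repair that the glycosylase Tdg starts, or by dilution when cells divide. In Treg cells, stable expression of Foxp3, the lineage factor, is known to go with loss of methylation at a conserved region of its first intron, and Tet2 and Tet3 as well as Mbd2 have been tied to that loss.

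Probe coordinates follow the array's own annotation (build mm9), and whether a probe lies in coding or untranslated exon was not analysed here. The Dnmt1 probe lies on chromosome 9 from 20711973 to 20712341, a span of 369 bases for a probe of 60, so its sequence is split in the genome. The Dnmt3a probe lies on chromosome 12 from 3914320 to 3914379, at position 9611 of its transcript as the array design counts it. The 3 Dnmt3b probes lie on chromosome 2 and start at 153512098, 153512991 and 153513403 on the plus strand. The Dnmt3l probe lies on chromosome 10 from 77526112 to 77526171. The Tet1 probes, on chromosome 10, occupy 62301856 to 62301915, 62276042 to 62276101 and 62274448 to 62274507 on the minus strand. The Tet2 probes, on the minus strand of chromosome 3, start at 133176421, 133126905 and 133126751, and the first of these was designed on a cDNA clone from dendritic cells instead of the reference transcript. The Tet3 probes lie on the minus strand of chromosome 6 from 83352743, 83319720 and 83318731. The GC content of the 17 probes ran from 35% to 55%.

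The probe sequences given here are those of the maintenance enzyme Dnmt1 and of Tet1 and Tet3, limited within these 3 genes to probes with no stop codon in at least 1 forward reading frame. They show the separate stretches of Tet3 and the upstream stretches of Tet1 that were read. The Tet1 probe at position 6892, which gives the gene's value, and the probes of the other members are not printed.
Dnmt1, position 4984: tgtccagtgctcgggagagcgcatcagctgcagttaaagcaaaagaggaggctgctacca
Tet1, position 3128: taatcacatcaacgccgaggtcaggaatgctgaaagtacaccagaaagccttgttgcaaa
Tet1, position 5298: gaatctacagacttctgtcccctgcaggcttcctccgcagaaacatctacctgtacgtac
Tet3, position 2202: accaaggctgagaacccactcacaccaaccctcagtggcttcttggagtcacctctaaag
Tet3, position 3494: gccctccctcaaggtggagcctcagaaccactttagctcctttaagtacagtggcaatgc
Tet3, position 4483: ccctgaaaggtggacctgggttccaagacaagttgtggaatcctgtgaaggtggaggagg

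Values are processed signals in intensity units, and a value after ± is the error that the scanner software gives for that spot. For differences, each array was put on the log2 scale and its 75th percentile over all gene probes was subtracted, which was 1762 intensity units in the Nr4a-deficient library and 2047 in the wild-type library. Differences are Nr4a-deficient minus wild-type. Across repeated spots, the SD of a single-spot difference was 0.074 for bright probes (scaled mean above 1), 0.087 between -1 and 1, 0.14 between -3 and -1, and 0.32 below -3. This spread covers spot noise only and leaves out animals, sorts and RNA preparations. The RNAs spiked into both labelling reactions, 8 of which were measured, lay 0.37 ± 0.057 (SD) higher in the Nr4a-deficient library after this step. If they set the scale, every difference is 0.37 lower, which moves the median of all genes by the same amount, and with no scaling between arrays the median moves by -0.22. Among all 18536 detected genes, 9.64% differed at least 2-fold by measured value or bound. Of these, 48.8% were higher in the Nr4a-deficient library, against 27.1% on the scale of the spike-ins and 36.2% with no scaling.

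Of the DNA methylation genes at their brightest probes, Dnmt3a and Tet1 had the lowest values and Tet3 and Mbd2 the highest, all within 2-fold. The top of this order depends on the probe: as the mean of a gene's probes, Tet2 was the highest, at 0.15. None of the 7 genes measured on both arrays differed at least 2-fold, where 9.64% of all detected genes did (4.7% higher and 4.94% lower) and 5.71% of those measured on both arrays. With so few members, a count of 0 is near these shares. None of the 7 passed 1.5-fold either, where 12.1% of the genes measured on both arrays did. That count depends on the scale: Dnmt3a, Dnmt3b and Tet1 passed 1.5-fold, all lower, on the spike-in scale, where 24.7% of genes did, and Dnmt3a and Tet1 with no scaling, where 15.1% did. At the brightest probe of each gene, 5 of 7 members lay below 0 and 2 above, with a median of -0.050, beside a median of -0.014 over all 16294 genes measured on both arrays. The quartiles over all those genes were -0.19 and 0.17. Dnmt3a, Dnmt3b and Tet1 lay below the lower quartile. These 3 genes and Dnmt1 lay below 0 in each of 13 processing settings (scales, normalizations, filters, and the mean of a gene's probes), Dnmt1 by as little as -0.00048. The median of spots, the deposited values and the filters left the member values nearly as they were, and the other scales moved all genes alike. The 13 settings are therefore not separate checks. At its most 5′ probe, which is not among the 13, Dnmt3b lay at 0.0049. On the spike-in scale all 16 probes lay below 0, as did the median of all genes.

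**Figure D1:**
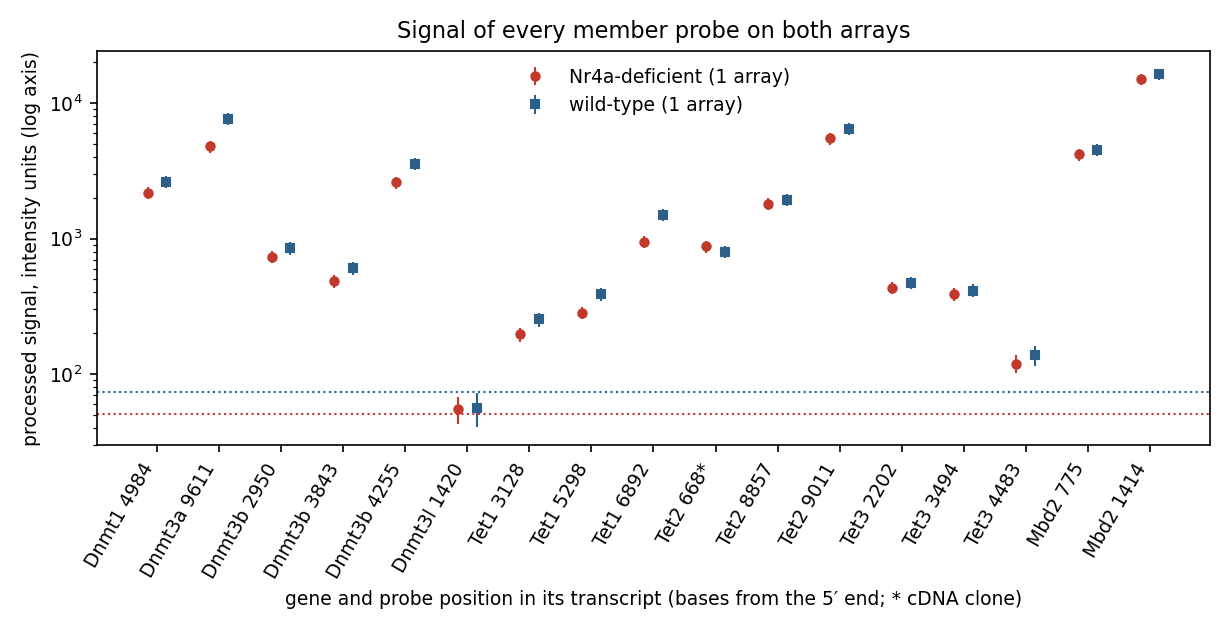
Processed signal (intensity units, log axis) of each of the 17 probes on the Nr4a-deficient array (red circles) and the wild-type array (blue squares), with the error of the scanner software as bars and the lowest signal called well above background on each array as dotted lines. Each pair lies close together, and Dnmt3l, at 55.1 and 56.6, sits at the dotted lines.

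Among the writers, Dnmt3a had the widest difference. Its probe gave 4790 ± 479 in the Nr4a-deficient library and 7636 ± 764 in the wild-type library. It was thus lower in the Nr4a-deficient library without any scaling, as was every other member probe except the Tet2 clone probe. After scaling the difference was -0.46, or 1.37-fold lower, 6.19 times the SD of a single-spot difference for probes as bright. It and the Tet1 probe at position 6892 were the 2 probes whose difference passed 2 times the error that the scanner software implies, 0.20 for Dnmt3a and 0.21 for Tet1. Of all genes measured on both arrays, 8.60% lay as low or lower. The difference stayed between -0.83 and -0.37 over the 13 settings, and no other Dnmt3a probe was on the array against which to set it.

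Dnmt1, the maintenance enzyme, gave 2183 ± 219 in the Nr4a-deficient library and 2625 ± 263 in the wild-type library. Its scaled difference of -0.050 was smaller than the single-spot SD of 0.087. It was -0.42 on the spike-in scale and -0.27 with no scaling, both larger than that SD, so whether Dnmt1 differed beyond spot noise depends on the scale.

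Dnmt3b, the other enzyme for unmodified sites, was read by 3 probes whose differences spread over 0.24. At position 4255 of its transcript the signal was 2595 ± 260 in the Nr4a-deficient library and 3551 ± 356 in the wild-type library, a difference of -0.24. At position 3843 it was 484 ± 50.8 and 607 ± 64.7 in the same order, a difference of -0.11, and at position 2950 it was 734 ± 74.5 in the Nr4a-deficient library and 849 ± 86.9 in the wild-type library, a difference of 0.0049. The lowest value came from the probe nearest the 3′ end, which was also the brightest. Dnmt3l, a relative without catalytic activity that stimulates Dnmt3a in germ cells, gave 55.1 ± 12.05 in the Nr4a-deficient library and 56.6 ± 16.3 in the wild-type library. The faintest probe called well above background had 51.1 on the Nr4a-deficient array and 73.8 on the wild-type array, and Dnmt3l was called in the Nr4a-deficient library only, although its raw signals nearly coincided. No fold is given, since the bound lies under 1.

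Among the Tet enzymes, Tet1 was lower in the Nr4a-deficient library at each of its 3 probes. At position 6892 the signal was 949 ± 95.8 in the Nr4a-deficient library and 1493 ± 150 in the wild-type library, a difference of -0.44 or 1.35-fold lower. At position 5298 it was 283 ± 30.5 in the Nr4a-deficient library and 389 ± 41.9 in the wild-type library (-0.24), and at position 3128 it was 196 ± 23.0 in the Nr4a-deficient library and 254 ± 30.6 in the wild-type library (-0.16). The first of these was 5.02 times the single-spot SD, and the last lay within the SD of 0.32 for probes as dim. Of all genes, 9.05% lay as low as the brightest Tet1 probe or lower. The value for Tet1 ran from -0.81 to -0.28 over the settings, and it was -0.28 as the mean of its probes.

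Tet2, the Tet family member best known as a tumour suppressor of blood cells, differed by its probe. The probe on the dendritic cell cDNA clone gave 876 ± 88.3 in the Nr4a-deficient library and 796 ± 81.1 in the wild-type library, a difference of 0.35 and the highest among the 16 probes. It was also the only probe whose raw signal was higher in the Nr4a-deficient library. Both probes near the 3′ end of the reference transcript lay closer to 0. At position 8857 the signal was 1798 ± 180 in the Nr4a-deficient library and 1934 ± 194 in the wild-type library (0.11), and at position 9011 it was 5497 ± 550 in the Nr4a-deficient library and 6445 ± 645 in the wild-type library (-0.014). The value at the brightest probe ran from -0.39 to 0.038 over 12 settings, and the mean over the probes was 0.15, so Tet2 had no settled direction. That value was below 0 in 8 of the 12, several of which only repeat the main value. Of 12 macrophage and dendritic cell markers, 3 were at least 2-fold higher in the Nr4a-deficient library and 5 lower, with a median of -0.62. Itgax (2.65) and Clec9a (2.49) were the highest of these, and C1qc (-1.60) and C1qa (-1.55) the lowest. Among 11 plasmacytoid dendritic cell markers, 8 were at least 2-fold higher and none lower. The part of such cells in the clone probe's value was not tested.

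Tet3 and Mbd2 lay slightly above 0 on this scale and below 0 on the spike-in scale. The Tet3 probes gave 435 ± 45.5 in the Nr4a-deficient library and 472 ± 50.5 in the wild-type library at position 2202 (0.098), 389 ± 40.9 in the Nr4a-deficient library and 413 ± 45.1 in the wild-type library at position 3494 (0.13), and 119 ± 18.3 in the Nr4a-deficient library and 138 ± 23.6 in the wild-type library at position 4483 (0.0046). All 3 lay within 1 single-spot SD. Mbd2, which binds methylated CpG sites and carries the NuRD chromatin remodelling complex to them, was bright at both probes, which start at 70740406 and 70785350 on the plus strand of chromosome 18. At position 1414 it gave 15007 ± 1501 in the Nr4a-deficient library and 16321 ± 1632 in the wild-type library (0.095), and at position 775 it gave 4186 ± 419 in the Nr4a-deficient library and 4501 ± 450 in the wild-type library (0.11). The 2 Mbd2 probes differed by only 0.016, the closest match within any of the multi-probe members. Over the settings Tet3 ran from -0.27 to 0.15 and Mbd2 from -0.28 to 0.17, each below 0 in 3 of 13.

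**Figure D2:**
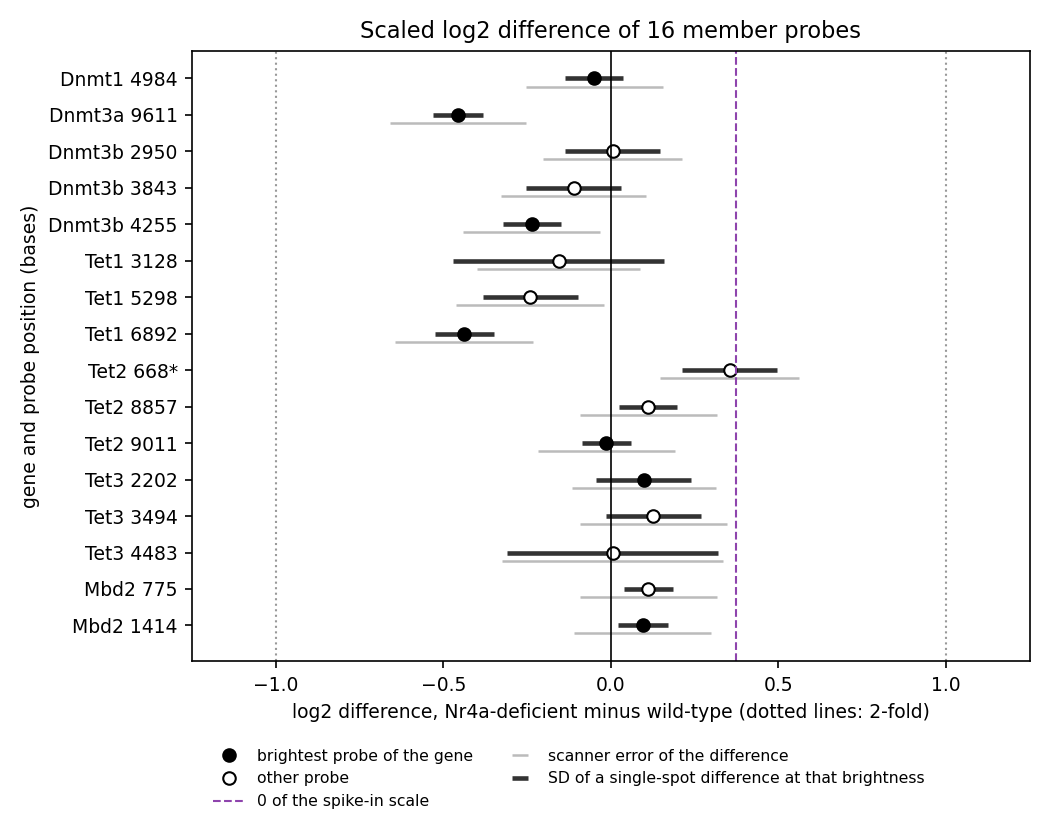
Scaled log2 difference (Nr4a-deficient minus wild-type) of the 16 probes measured on both arrays, with the SD of a single-spot difference at that brightness (dark bars) and the error of the scanner software (grey bars). All lie within the dotted 2-fold lines, Dnmt3a (-0.46) and the Tet1 probe at position 6892 (-0.44) lowest, and all lie left of the dashed line that marks 0 on the spike-in scale.

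Probes at different places in the same gene gave different values, mostly within spot noise for the members. In all 5 members with several probes the most 3′ probe lay lower than the most 5′ probe by genome position, by 0.24 in Dnmt3b, 0.28 in Tet1, 0.37 in Tet2, 0.094 in Tet3 and 0.016 in Mbd2. From the spot noise of both probes, the SD of such a gap is 0.166 in Dnmt3b, 0.327 in Tet1, 0.160 in Tet2, 0.346 in Tet3 and 0.104 in Mbd2. The gap thus passed 1 SD in 2 of the 5, Dnmt3b and Tet2, and 2 SD in Tet2 only. For Tet1 this depends on the brightness class of its most 5′ probe, whose scaled mean of -3.09 lay just below the limit of -3. The Tet2 gap rests on the cDNA clone probe, and the order along Tet3 was not steady. In Tet3 the most 3′ probe was the dimmest of the 3, and in the other 4 it was the brightest. On the array as a whole, over 2555 transcripts with several probes measured on both arrays at least 100 bases apart, the 3′ probe was lower in 59.1%, with a median of -0.037. With 100 to 300 bases between the probes the median was 0.0070 (421 transcripts), with over 1000 and up to 2000 bases -0.061 (628 transcripts), and over 2000 bases -0.12 (695 transcripts, 69.8% lower at the 3′ probe). For the pairs over 2000 bases apart it was -0.14 where the 3′ probe was the brighter and -0.067 where it was the dimmer, and -0.076 for all of them after cyclic loess, which removes trends with brightness. Transcripts are not independent replicates, and these are descriptions with no test. Dnmt3b (-0.24 over 1305 bases) and Tet1 (-0.20 over 1594 bases of 1 transcript) lay below the quartile of -0.19 for their distance. Tet2, without the clone probe, lay at -0.125 over 154 bases of its reference transcript, below the quartile of -0.086 for its distance. Mbd2 and Tet3 lay within the quartiles for theirs. Whether the place of the probe has a part in the low value of Dnmt3a, read at position 9611 alone, was not tested. Over probes pooled from transcripts of different lengths, the median difference rose across 7 successive bins of position counted from the 5′ end. It was -0.094 for 3559 probes within the first 1000 bases and 0.061 for 322 probes beyond position 8000. These bins do not tell how far a probe lies from the 3′ end, so they cannot be set against the gaps within transcripts. Beyond position 8000, 14.9% of the probes lay below -0.4, against 8.73% to 12% in the other bins.

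**Figure D3:**
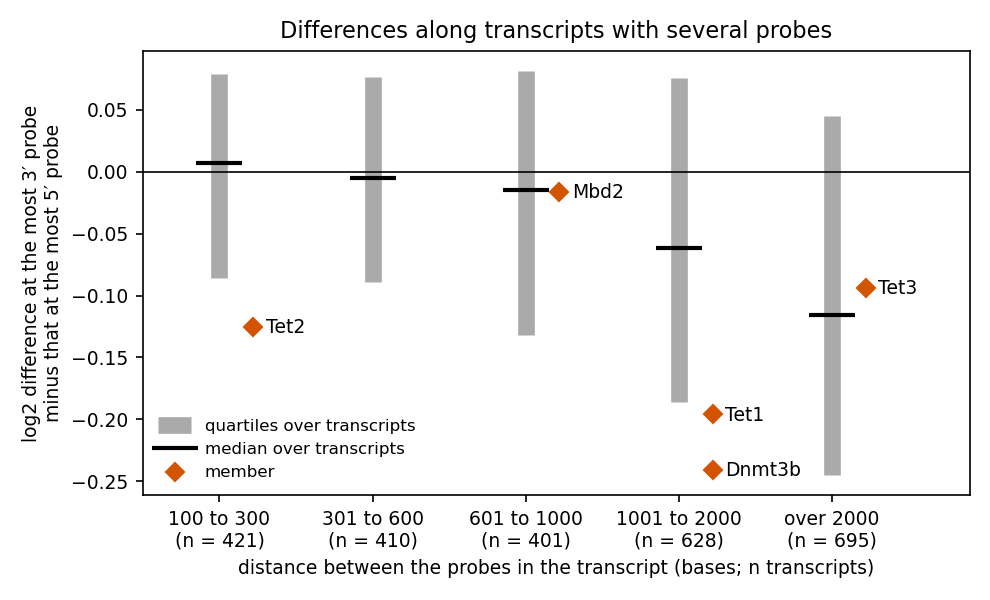
Log2 difference at the most 3′ probe minus that at the most 5′ probe of the same transcript (vertical axis), by the distance between the probes in bases; black marks are medians and grey bars quartiles over the transcripts given below each bin, and diamonds are 5 members. The median moves to -0.12 in the widest bin, and all 5 diamonds lie below 0.

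The genes that work with the writers, readers and erasers were mostly within 2-fold as well. Over 6 lists of related genes, 104 of 109 genes were detected, with 2 higher and 5 lower by 2-fold or more, together 6.73%. The share was 9.64% of all detected genes and 5.71% of those measured on both arrays. All detected list genes except Mat1a were measured on both arrays, so the second share is the nearer one. None of the 12 genes for maintenance and recruitment of DNA methylation passed 2-fold. Uhrf1 gave 10565 in the Nr4a-deficient library and 15989 in the wild-type library, a difference of -0.38 with -0.42 at its other probe. Pcna, the sliding clamp of replication that also holds Dnmt1, lay at -0.41, and the remodeller gene Hells at -0.094. The median of this list was -0.14, and 9 of 12 lay below 0. The 20 S phase genes, which mark replicating cells, had a median of -0.27 with 17 below 0 and none past 2-fold, and Pcna belongs to both lists. Dnmt1, at -0.050, lay closer to 0 than the medians of both lists.

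Readers and NuRD subunits lay around 0, with a median of 0.0087 over 21 genes and none past 2-fold. Mbd1 lay at 0.083, Mbd4, a glycosylase, at 0.18, and Mbd3, the NuRD subunit that takes the place of Mbd2, at -0.11. On the spike-in scale the median was -0.36 and these 3 genes lay between -0.49 and -0.19.

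The demethylation list held genes past 2-fold in both directions. By 2-fold or more, 1 of its 21 detected genes was higher and 2 were lower, with a median of -0.0645. Cxxc5, a CXXC zinc finger protein related to the former DNA-binding part of Tet2, gave 826 in the Nr4a-deficient library and 315 in the wild-type library, 3.04-fold higher and still 1.23 on the spike-in log2 scale. Tdg was 2.11-fold lower at its brightest probe, with 455 in the Nr4a-deficient library and 1116 in the wild-type library. Its other probes did not follow: the log2 differences were -1.08 at position 1178 of the transcript, -0.12 at position 2972 and 0.36 at position 3093. Apobec2, a muscle-enriched relative of cytidine deaminases, was 2.14-fold lower, with 209 in the Nr4a-deficient library and 519 in the wild-type library. Gadd45b, a stress-induced factor, lay at 0.51, Gadd45a at 0.23, Gadd45g at 0.13 and Ogt, the O-GlcNAc transferase that binds Tet proteins, at -0.047. Gadd45a, Gadd45g and Ogt lay below 0 on the spike-in scale (-0.14, -0.24 and -0.42), and Gadd45b at 0.14.

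Cofactor genes had a median of -0.12 over 25 detected genes, with 1 higher and 1 lower at 2-fold. Mat1a, the liver form of the S-adenosylmethionine synthetase, was at least 4.19-fold higher, with 267 in the Nr4a-deficient library and 16.9, not well above background, in the wild-type library. Mat2a, the form used outside liver, lay at -0.13, and Ahcy, which clears the product of methyl transfer, at -0.015. Ahcyl2, an Ahcy-like gene, was 2.02-fold lower, with 6691 in the Nr4a-deficient library and 15736 in the wild-type library, and its other probes lay at -1.19 and -0.024. Idh2, which makes 2-oxoglutarate in mitochondria, lay at 0.11 (-0.27 on the spike-in scale) and Idh1 at -0.46 from signals of 97.1 in the Nr4a-deficient library and 155 in the wild-type library.

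Genes whose regulatory regions are known to be demethylated in Treg cells split. Of 6, 2 were at least 2-fold lower and none higher, with a median of -0.52. Ikzf4, which encodes the Foxp3 partner Eos, was 6.39-fold lower at its brightest probe, with 4283 in the Nr4a-deficient library and 31789 in the wild-type library. Its other probes lay at -2.76 and, from signals of 119 and 342 in the same order, at -1.30. Il2ra, the IL-2 receptor alpha chain, was 2.42-fold lower, with 16618 in the Nr4a-deficient library and 46649 in the wild-type library, and Tnfrsf18, which encodes GITR, lay at -0.86. Ikzf2 lay at -0.18 and Ctla4 at 0.11, or -0.26 on the spike-in scale. Foxp3 gave 74.5 in the Nr4a-deficient library and 85.4 in the wild-type library, close to the lowest signals called above background, with a difference of 0.020, or -0.35 on the spike-in scale. The arrays measured RNA and carry no value for DNA methylation at any of these genes.

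**Figure D4:**
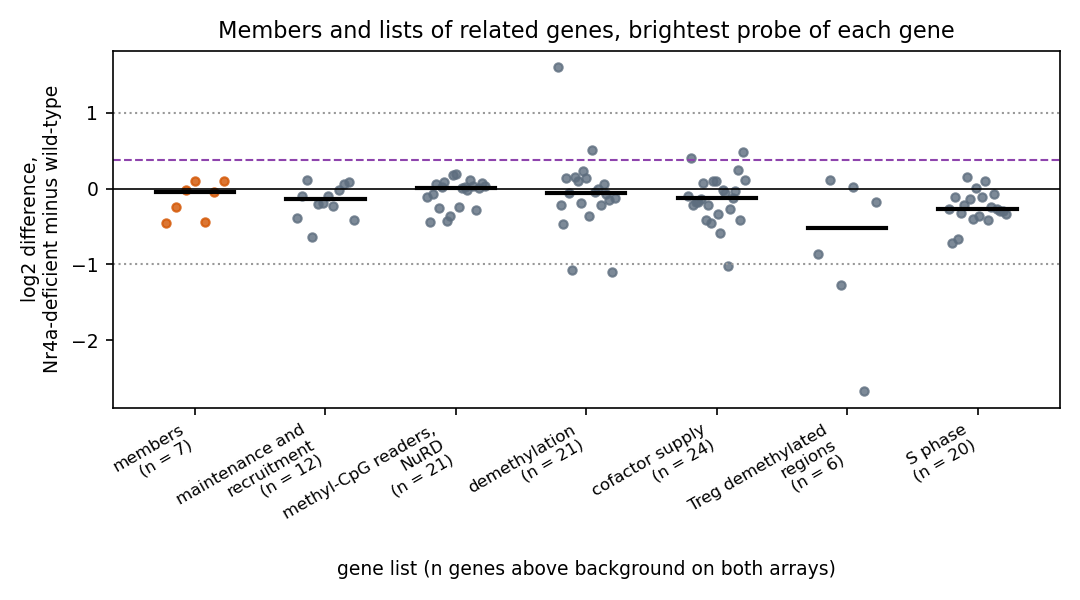
Log2 difference (Nr4a-deficient minus wild-type) at the brightest probe of each gene above background on both arrays, for 7 members and 6 lists, with medians as bars, 2-fold as dotted lines and 0 of the spike-in scale dashed. The members lie between -0.46 and 0.098, and the genes with Treg demethylated regions have the lowest median, -0.52.

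The libraries also differed in markers of other cells, and in bulk RNA fewer cells of a type and less RNA per cell cannot be told apart. Among 10 T and Treg cell markers, 5 lay above 0 and 5 below, with a median of 0.0058 and 1 at least 2-fold lower. They ran from -1.27 in Il2ra and -0.86 in Tnfrsf18 to 0.18 in Cd3e. Cd3e was bright on both arrays, with 109160 in the Nr4a-deficient library and 111550 in the wild-type library. Foxp3 was dim, with 74.5 and 85.4 in the same order. B cell markers had 4 of 10 detected genes at least 2-fold higher and a summed scaled signal of 23.8 in the Nr4a-deficient library and 10.3 in the wild-type library, with Pax5 and Blk not above background on either array. Plasmacytoid dendritic cell markers had 8 of 11 at least 2-fold higher, with a median of 2.92 and Cox6a2 (114-fold), Upb1 (49.9-fold) and Cd209d (32.1-fold) furthest. Their summed signal, mostly that of the brightest Siglech probe, was 130 in the Nr4a-deficient library and 99.4 in the wild-type library. That probe lay at 0.10, while the other Siglech probe measured on both arrays lay at 6.63. Among markers of NK and CD8 T cells, 3 of 9 were higher (summed signal 16.5 and 8.66 in the same order), with Ncr1 and Klrc1 not above background on either. Macrophage and dendritic cell markers had 3 of 12 higher, Itgax (6.27-fold) and Clec9a (5.63-fold) furthest, and 5 lower, C1qc (-1.60) and C1qa (-1.55) furthest (50.3 and 68.1), and erythroid and platelet markers 6 of 7 lower (31.4 and 98.4), with Klf1, Pf4, Itga2b and Gp9 not above background on either. The part of these cells in the values of the DNA methylation genes was not tested.

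The nuclear receptors of the Nr4a family can bind the element AAAGGTCA. None of the 13 RefSeq promoter windows of 7 members (GRCm38.p6, from 250 bases before to 50 after each start) held these letters on either strand, where 1.51% of all 32851 windows of 300 bases did, and this says only that the letters are not in these windows. CpG sites in the windows numbered 57 in Tet2, 46 and 47 in the upstream pair of Dnmt3a, 33 in the most CpG-rich of Dnmt1, 30 in Dnmt3b, 22 in Tet3 and 17 in Tet1. Those of Dnmt3l held 3 to 6, below the median of 7 over all windows.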

How the data were processed

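Total RNA of sorted Treg cells was labelled with Cy3 after low-input amplification, per the labels' protocols. Each deposited scanner file gives 1 processed intensity per spot, made with Agilent Feature Extraction 10.7.3.1 per the file headers, which subtracted background and removed trends within each array. No normalization between arrays is recorded. The deposited value table also holds intensity values, which matched the scanner values within 1% for 99.7% of probes on both arrays. It is linear and not centred, with column medians of 143.7 (Nr4a-deficient) and 156.8 (wild-type), and was used as an alternative.

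Control spots and outlier flags (173 gene spots on the Nr4a-deficient array and 209 on the wild-type array) were left out, no gene spot was saturated, and repeated spots were averaged on the log2 scale. The software's call of well above background was required on over 50% of a probe's spots, which 23113 of 39348 probes met on the Nr4a-deficient array and 21872 on the wild-type array. A gene is given by its brightest such probe, and by a bound where 1 array only measured it. Names were updated through RefSeq (GRCm38.p6): 27324 probes matched an accession, 3518 a symbol and 551 a synonym, and 8036 kept the array's name. Normalizations used limma 3.58.1. The calculation was tested on simulated arrays. Precision is limited by having 1 array per genotype. Both arrays were on 1 slide and 1 scan.

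The members, lists and rule for named genes were chosen with earlier results of these data known. The rule named all members, a fixed set of related genes, and up to 3 genes of each list past 2-fold in each direction, and some genes of that set are not reported here. Cell type markers were named outside it, after their values were seen. No gene was named for a pattern like a member's, since 2 arrays give 1 difference per gene.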

Additional observations from a re-analysis of the deposited data

How the results depend on the processing

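No member passed 2-fold under any of 12 other settings, or 1.5-fold on the percentile scale, but 3 passed 1.5-fold on the spike-in scale and 2 with no scaling, combinations chosen after seeing the data. The 2-fold limit was not passed either with the most 3′ or most 5′ probe of each gene, both chosen after seeing the data. Shifts of medians below are judged against a single-spot SD of 0.14 over all repeated probes, and those of single members against the SD for probes as bright. Counts were not set against an SD. These SDs cover spot noise only and give no error of a median over genes. On the spike-in scale, the member median became -0.42, and the list medians -0.51 (maintenance), -0.36 (readers and NuRD), -0.44 (demethylation), -0.49 (cofactors), -0.90 (Treg demethylated regions) and -0.64 (S phase). With no scaling they became -0.27, -0.36, -0.21, -0.28, -0.34, -0.74 and -0.49 in the same order, the member median first. These follow from the shift of all genes that each scale makes. The count of related genes at least 2-fold lower, 5, was 9 with the spike-ins, 3 with the mean over probes and 3 with normexp and quantile normalization, and the count higher, 2, was 1 with only probes above background on both arrays. Across all genes, 871 higher and 915 lower became 560 and 1510 with the spike-ins and 432 and 499 with both arrays above background. They became 2059 and 1786 with no filter, 1617 and 1610 at 1.5-fold, and 566 and 663 with normexp and quantile normalization. The cause of the normexp counts was not tested. With the most 3′ probes the member median was -0.050, and with the most 5′ probes 0.0049, where Dnmt3b moved to 0.0049, Tet1 to -0.16 and Tet2 to 0.35. Dim signal limits Dnmt3l and the Tet3 probe at position 4483 most. No paired analysis was possible because each genotype has 1 library and the labels give no replicate number.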

Other observations

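Probes of 1 gene disagreed for several partners of Mbd2 in the NuRD complex, chosen after their values were seen. Mta3, a NuRD subunit, lay at 0.084 and 0.023 at its 2 reference-transcript probes, while a probe on a cDNA clone gave 1347 in the Nr4a-deficient library and 711 in the wild-type library, a difference of 1.14. Hdac1, a histone deacetylase, lay at -0.44 at position 1885 of its transcript, at 0.46 at position 1732 and at -0.14 at position 1543. Rbbp4, a histone-binding subunit, lay at -0.37 at its bright probe and at -1.21 at a dim one with 128 in the Nr4a-deficient library and 343 in the wild-type library. Across the array, 68.5% of 3801 genes with several measured probes had all of them on the same side of 0, and the median range between probes of a gene was 0.14. Among the 5 members with several probes, 3 had all on the same side (Tet1, Tet3 and Mbd2).

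Cdca7, which is needed with Hells for methylation of repeats, had the lowest value of the maintenance list at -0.64, with 4836 in the Nr4a-deficient library and 8743 in the wild-type library, and is named here because of that value. Mcm3, a replication helicase subunit, lay at -0.40 at 1 probe and at 0.26 at another that lies on nearly the same stretch of chromosome 1.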
